A study of Mus musculus with 15 samples.

Results

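The genes described are Cd3e, Cd3d, Cd3g, Cd247, Lck, Zap70, Lat, Lcp2 and Cd5, which encode the signalling chains of the T cell receptor complex and the proteins that act first when it is engaged. They were chosen by name for this role, though with earlier results of these data known, and are 9 of the 45706 gene identifiers in the count table. All 9 passed the filter on low counts, with at least 2098 reads in every library. Regulatory T cells (Tregs), defined by Foxp3 and known for keeping other immune cells in check, were sorted by a Foxp3 reporter from adult C57BL/6 mice, and their RNA was sequenced in bulk. Spleen, thymus and peritoneal cavity were each sampled from the RelB-dDC line (here dDC) and from littermate controls, and the mice of all 6 groups carried the reporter. Spleen had 3 control and 3 dDC libraries, thymus had 3 and 2, and peritoneal cavity had 2 and 2. The line's name is read here as mice without the NF-kappaB subunit RelB in dendritic cells, so the sorted Tregs are not the cells that carry the deletion. The promoter that drives it is not named in the sources used here, nor is the number of mice behind each library, so p-values measure only the spread between these samples.

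The receptor's antigen-binding chains have no signalling tails of their own. CD3 epsilon, delta and gamma, with the zeta chain encoded by Cd247, carry the tyrosine motifs that the kinase Lck phosphorylates, and the kinase Zap70 docks on these motifs and phosphorylates the adaptors Lat and Lcp2 (also called SLP-76), on which calcium and Ras signalling are assembled. Cd5 is a surface protein that dampens receptor signals and is known to track their strength in the thymus. Tregs depend on receptor signals both for their development in the thymus and for their suppressive program in tissues.

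Total counts ranged from 15714288 to 24332045 per library, and 18423 genes were tested. Foxp3 lay between 178.6 and 326.9 CPM (counts scaled to a common library size) in all 15 libraries. Markers of other cells were also present and differed by tissue. Cd79b, a chain of the B cell receptor, was at 97.13 to 233.2 CPM in the 6 spleen libraries, 35.03 to 81.55 in the 5 thymus libraries and 372.2 to 762.3 in the 4 peritoneal libraries. The summed myeloid list of 8 genes reached 1592 CPM in peritoneal control 2 and at most 293.5 CPM in spleen, while the summed erythroid list was 2396 to 7992 CPM in spleen and at most 398.5 elsewhere. In bulk libraries, fewer Tregs and less RNA per Treg cannot be told apart.

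The promoter windows of the genes that passed a test between tissues within 1 genotype (Cd3e, Lck, Lat and Cd5) show a short sequence they share. Each window runs from 250 bases before to 50 bases after the transcription start in RefSeq, build GRCm38.p6, read 5′ to 3′ on the gene's own strand, which is the minus strand for all of these genes. Capitals mark CAGGAA or its reverse complement TTCCTG, a core that factors of the ETS family can bind.
Cd3e, chr9:45009562-45009861: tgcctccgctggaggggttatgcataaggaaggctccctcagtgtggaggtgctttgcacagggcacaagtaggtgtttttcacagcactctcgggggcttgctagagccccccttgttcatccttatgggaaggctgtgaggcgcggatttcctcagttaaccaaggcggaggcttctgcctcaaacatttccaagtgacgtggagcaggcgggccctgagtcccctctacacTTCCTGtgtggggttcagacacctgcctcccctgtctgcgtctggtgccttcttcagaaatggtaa
Lck, upstream start, chr4:129573592-129573891: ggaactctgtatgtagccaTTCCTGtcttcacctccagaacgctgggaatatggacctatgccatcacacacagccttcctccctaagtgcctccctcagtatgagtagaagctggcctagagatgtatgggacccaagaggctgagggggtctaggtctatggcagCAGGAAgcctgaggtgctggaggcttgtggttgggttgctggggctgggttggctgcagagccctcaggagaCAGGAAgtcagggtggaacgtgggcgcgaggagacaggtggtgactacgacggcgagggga
Lat, chr7:126369519-126369818: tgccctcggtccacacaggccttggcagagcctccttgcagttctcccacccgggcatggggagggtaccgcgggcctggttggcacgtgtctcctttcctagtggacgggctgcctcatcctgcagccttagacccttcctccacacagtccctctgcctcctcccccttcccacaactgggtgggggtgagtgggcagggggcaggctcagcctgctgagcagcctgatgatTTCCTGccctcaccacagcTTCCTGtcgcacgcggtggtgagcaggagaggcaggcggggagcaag
Cd5, chr19:10738925-10739224: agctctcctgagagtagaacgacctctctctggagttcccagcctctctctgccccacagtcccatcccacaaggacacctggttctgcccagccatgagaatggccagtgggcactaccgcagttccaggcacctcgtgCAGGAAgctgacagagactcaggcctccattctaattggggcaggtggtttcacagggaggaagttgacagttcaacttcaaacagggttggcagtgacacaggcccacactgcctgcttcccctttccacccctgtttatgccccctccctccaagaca
The core occurred 1 time in the Cd3e window, 3 times in the upstream window of Lck, 2 times in the window of Lat and 1 time in that of Cd5. The other Lck window, chr4:129558323-129558622, is not printed and held it 1 time. Over all 9 genes, which have 12 windows in RefSeq, 10 windows of 8 genes held it on either strand, and Cd3g was the gene without it. Of 32851 windows of this length in the mouse RefSeq table, 30.6 percent held it. TGTGGT, a core of RUNX factors, was found on either strand in 3 of the 12 windows and in 16.8 percent of all windows. CANNTG, the E-box, was found in 12 of 12 and in 72.3 percent of all windows. These motifs were chosen with the expression values known, and a match is a description of the sequence only.

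Messenger RNA of all 9 genes was abundant in every library. Per kilobase of exon, a scale on which genes can be compared, the median level over the 15 libraries was 1191 CPM for Cd3e and 1168 for Cd3g, then 790.7 for Lck. Lat followed at 558.1 and Cd3d at 555.3, then Cd5 at 259.7 and Lcp2 at 210.0, with Cd247 at 81.48 and Zap70 at 77.02 lowest. Cd3e and Cd3g, Lat and Cd3d, and Cd247 and Zap70 were each closer in median than the spread of either gene over the libraries, whose coefficient of variation was between 12.8 percent for Lcp2 and 34.9 percent for Zap70. The value of Cd247 is uncertain. Its exons share 3007 bases with Pou2f1, a gene on the opposite strand, and 206 with Gm16565, a gene on the same strand. The library chemistry does not mark the strand. Over its 2116 unshared exon bases the same counts would correspond to 205.2 CPM per kilobase. Cd3e also had the narrowest range over libraries, 1.56-fold from lowest to highest, and Zap70 the widest at 4.16-fold.

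**Figure D1:**
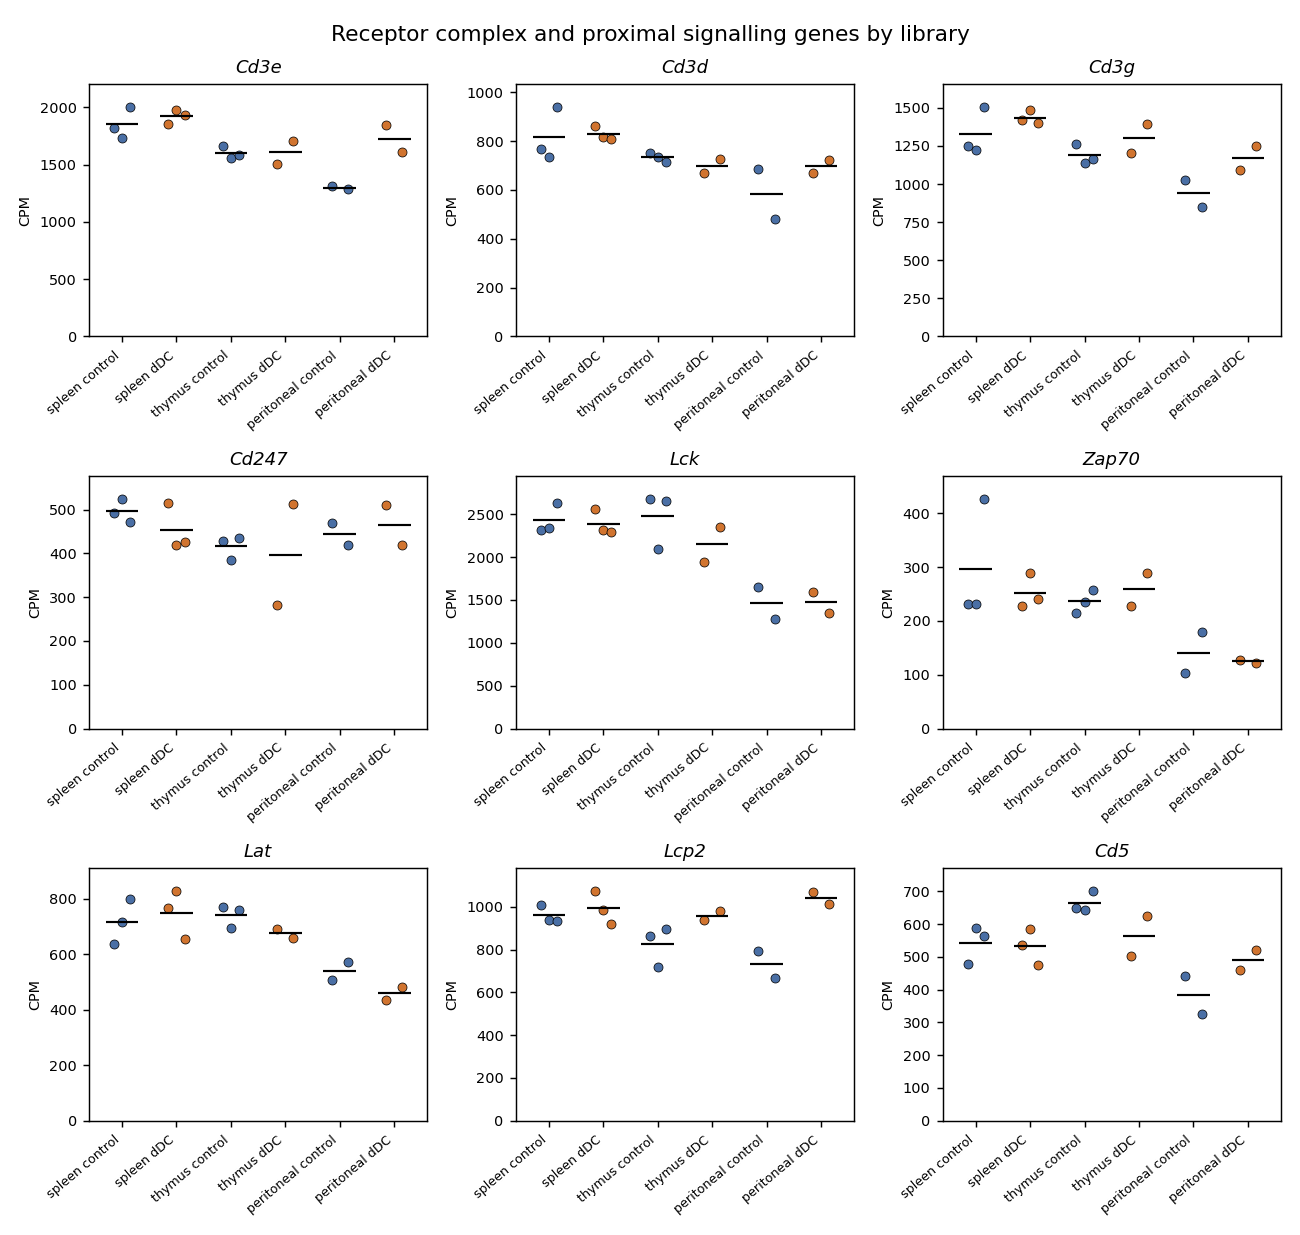
CPM (vertical axis, linear from 0) of each of the 9 genes in each library (points) with the mean of each group (bars); controls are blue and dDC orange. The 4 peritoneal libraries lie below the 11 others for Lck, Zap70 and Lat, and overlap them for the other 6 genes.

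Lck, Zap70 and Lat had less RNA in peritoneal Tregs than in Tregs of spleen or thymus, averaged over both genotypes. In this average, Lck was 1.64-fold lower and Lat 1.47-fold lower in peritoneal cavity than in spleen, and Zap70 was 2.06-fold lower. Against thymus the folds were 1.57 for Lck, 1.42 for Lat and 1.87 for Zap70. The CD3 chains were lower by less or did not pass the test, and Cd247 and Lcp2 passed none of these tests. Cd5 passed against thymus, where it was 1.42-fold lower, as much as Lat, and did not pass against spleen. The averages over genotypes were added after the values of each genotype had been seen.

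Lck, the Src family kinase that starts the cascade (ENSMUSG00000000409, mm10 chr4:129548344-129573641, minus strand), was at 2316, 2337 and 2637 CPM in spleen controls and 2556, 2316 and 2291 in spleen dDC. In thymus it was at 2681, 2097 and 2655 CPM in controls and 1944 and 2355 in dDC, and in peritoneal cavity at 1657 and 1273 in controls and 1592 and 1350 in dDC. All 4 peritoneal libraries were below all 11 others, while spleen and thymus overlapped. Averaged over both genotypes, the log2 difference from spleen was -0.71 (SE 0.104, edgeR adjusted p = 0.00308) and from thymus -0.65 (SE 0.108, adjusted p = 0.00403). A fit without a peritoneal or a thymus dDC library leaves 1 library in that group, which is then assumed to vary like the other groups. Both calls held with each of the 15 libraries left out in turn, with adjusted p at most 0.0240 and 0.0264. Within controls alone, Lck was lower than in spleen (-0.73, SE 0.147, adjusted p = 0.0472) and thymus (-0.76, SE 0.148, adjusted p = 0.0205). With a library left out, the first of these calls held only without thymus control 2 or peritoneal control 1 (adjusted p at most 0.432 otherwise), and the other was lost without thymus control 1 or 3 or peritoneal control 2 (at most 0.223). Within dDC the values were -0.70 (adjusted p = 0.0535) and -0.55 (adjusted p = 0.152), neither past the threshold of 0.05.

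Zap70, the kinase that docks on phosphorylated CD3 and zeta chains (ENSMUSG00000026117, chr1:36761798-36782818, plus strand), was at 102.6 and 179.2 CPM in peritoneal controls and 127.4 and 122.1 in peritoneal dDC. The spleen libraries had 230.4, 231.4 and 426.7 CPM in controls and 228.0, 288.4 and 241.1 in dDC. The thymus libraries had 215.4, 235.1 and 257.9 CPM in controls and 228.1 and 289.7 in dDC. The peritoneal values were again below all others, and spleen control 3 was far above its group. The averaged log2 difference was -1.04 from spleen (SE 0.206, edgeR adjusted p = 0.0186) and -0.90 from thymus (SE 0.213, adjusted p = 0.0284). The call against spleen was lost without either peritoneal dDC library (adjusted p at most 0.0937). The call against thymus was lost without thymus control 2 or 3, either thymus dDC library, peritoneal control 1 or either peritoneal dDC library (adjusted p at most 0.113). In 1 genotype alone Zap70 passed no test, with log2 differences between -0.75 and -1.07.

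Lat, the membrane adaptor on which the downstream enzymes gather (ENSMUSG00000030742, chr7:126363832-126369543, minus strand), was at 508.3 and 574.3 CPM in peritoneal controls and 436.9 and 481.5 in peritoneal dDC. It was at 636.6, 717.5 and 798.6 CPM in spleen controls and 769.1, 828.9 and 655.4 in spleen dDC. Thymus controls had 770.9, 696.0 and 760.7 CPM, and thymus dDC had 691.5 and 660.3. The peritoneal libraries were all lower than the rest. The averaged log2 difference was -0.56 from spleen (SE 0.0880, edgeR adjusted p = 0.00494) and -0.51 from thymus (SE 0.0915, adjusted p = 0.00682), and both calls held with each library left out (adjusted p at most 0.0307 and 0.0385). Within dDC, Lat was lower in peritoneal cavity than in spleen (-0.71, SE 0.125, adjusted p = 0.0234). This call was lost without spleen dDC 1 or 2 or either peritoneal dDC library (adjusted p at most 0.184). In controls the difference from spleen was -0.41 (adjusted p = 0.221).

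Lcp2, the cytosolic adaptor that partners Lat (ENSMUSG00000002699, chr11:34046920-34092295, plus strand), did not share this pattern in the average over both genotypes. It was at 794.9 and 669.0 CPM in peritoneal controls and 1070 and 1014 in peritoneal dDC, so that the lowest library and the group with the highest mean were both peritoneal. Spleen ranged from 919.8 to 1074 CPM and thymus from 716.3 to 979.0. The averaged log2 difference of peritoneal cavity was -0.16 from spleen (adjusted p = 0.395, edgeR) and -0.03 from thymus (adjusted p = 0.942). Within controls the difference of Lcp2 from spleen was -0.39 (edgeR adjusted p = 0.201), near that of Lat at -0.41 (adjusted p = 0.221). Within dDC it was 0.07 for Lcp2 (adjusted p = 0.984) and -0.71 for Lat.

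**Figure D2:**
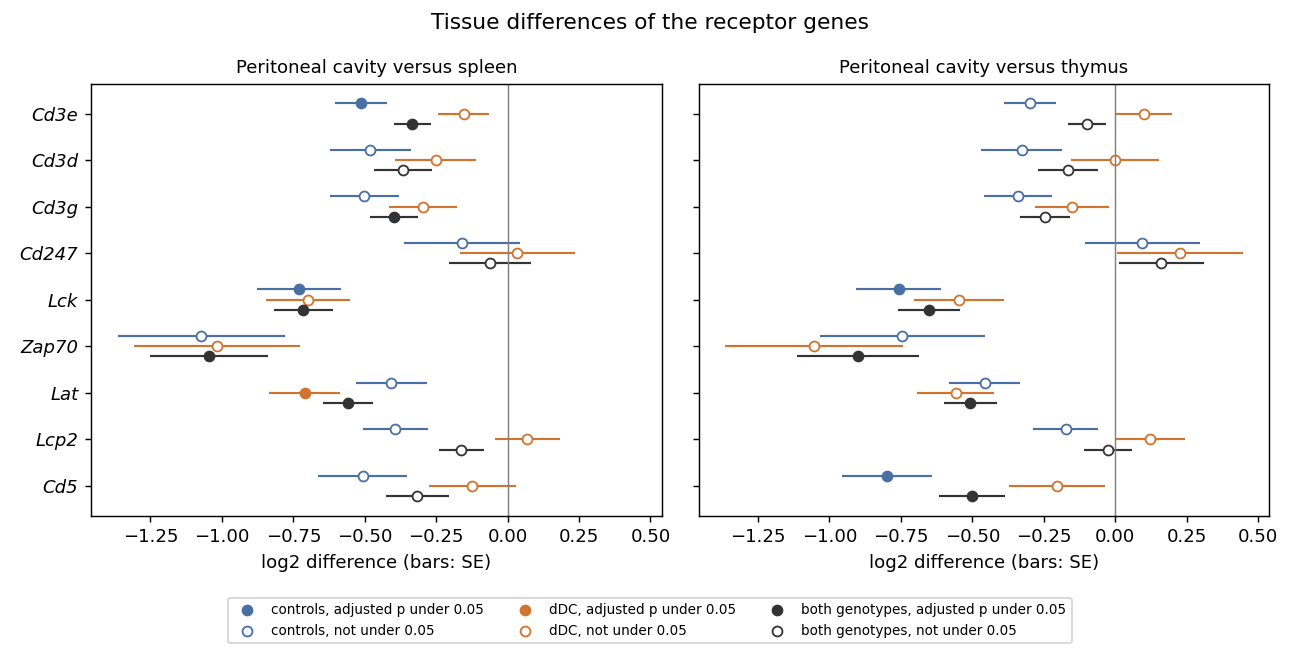
Log2 difference (horizontal axis) of peritoneal cavity from spleen (left) and from thymus (right) for each gene, with bars of 1 SE, in controls (blue), in dDC (orange) and averaged over both (black); filled points have an edgeR adjusted p under 0.05. Lck, Zap70 and Lat lie left of 0 in every comparison, from -0.41 to -1.07.

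Among the CD3 genes, which lie within 40019 bases of each other on chromosome 9, Cd3e (ENSMUSG00000032093, chr9:44998743-45009590, minus strand) gave a call. It was at 1314 and 1285 CPM in peritoneal controls, against 1816, 1735 and 2007 in spleen controls and 1660, 1555 and 1582 in thymus controls. In dDC it was at 1844 and 1609 CPM in peritoneal cavity, 1851, 1981 and 1930 in spleen and 1510 and 1711 in thymus. The peritoneal controls were thus below every other library, and the peritoneal dDC libraries lay among the others. Within controls Cd3e was lower in peritoneal cavity than in spleen (log2 difference -0.51, SE 0.0908, edgeR adjusted p = 0.0269). Leaving out spleen dDC 3, spleen control 1, spleen control 3 or either peritoneal control ended this call (adjusted p at most 0.246). The average of both genotypes was -0.33 (SE 0.0639, adjusted p = 0.0152), lost without peritoneal control 2 or peritoneal dDC 2 (adjusted p at most 0.0989).

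Cd3g (ENSMUSG00000002033, chr9:44969572-44980431, minus strand) was at 1026 and 850.8 CPM in peritoneal controls and 1092 and 1250 in peritoneal dDC, against 1226 to 1508 in spleen and 1137 to 1396 in thymus. It was lower than in spleen averaged over both genotypes (-0.40, SE 0.0843, edgeR adjusted p = 0.0260). That call was lost without spleen control 3, any spleen dDC library, peritoneal control 2 or either peritoneal dDC library (adjusted p at most 0.134). Cd3d (ENSMUSG00000032094, chr9:44981793-44987052, plus strand), whose start lies 1361 bases from that of Cd3g, with both genes transcribed away from each other, was at 686.7 and 482.5 CPM in peritoneal controls and 670.5 and 723.6 in peritoneal dDC. It lay between 736.2 and 941.7 CPM in spleen and between 667.9 and 753.1 in thymus, and its averaged difference from spleen was -0.37 (adjusted p = 0.0894). Peritoneal control 2 had the lowest level of all 3 CD3 genes. Without peritoneal control 1, which leaves control 2 as the only peritoneal control and takes the spread from other groups, Cd3d gave an adjusted p of 0.0277 against spleen and 0.0470 against thymus in controls.

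Cd247 (ENSMUSG00000005763, chr1:165788681-165877277, plus strand) ranged from 418.3 to 511.2 CPM in peritoneal libraries and from 282.2 to 524.7 in the 11 others, so that the groups overlapped. It passed no test between tissues, with averaged log2 differences of -0.06 from spleen and 0.16 from thymus (edgeR adjusted p = 0.930 and 0.656). Its lowest value was in thymus dDC 1, and the other thymus dDC library was at 511.9 CPM.

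Cd5 (ENSMUSG00000024669, chr19:10718143-10738974, minus strand) had its highest levels in thymus controls, at 650.2, 644.3 and 700.9 CPM. Thymus dDC libraries had 501.6 and 624.4 CPM, spleen libraries ranged from 474.3 to 588.1, and peritoneal libraries had 440.3 and 324.2 in controls and 458.6 and 519.5 in dDC. Every thymus control was above all 12 libraries of the other 5 groups. In controls Cd5 was lower in peritoneal cavity than in thymus (log2 difference -0.80, SE 0.157, edgeR adjusted p = 0.0209), a call lost without thymus control 1 or 3 or peritoneal control 2 (adjusted p at most 0.221). The average of both genotypes was -0.50 (SE 0.114, adjusted p = 0.0237), lost without thymus control 3, thymus dDC 2, peritoneal control 2 or either peritoneal dDC library (adjusted p at most 0.102). Thymus against spleen in controls gave 0.29 (adjusted p = 0.527). Cd5 is also known on B-1 B cells, and Cd79b was highest in the peritoneal libraries.

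Counted over all 9 genes, 2 passed in peritoneal cavity against spleen in controls, all lower, against 0.792 percent of all genes tested in either direction. Against thymus in controls 2 passed (background 2.47 percent), against spleen in dDC 1 (0.906 percent) and against thymus in dDC 0 (1.35 percent). Averaged over both genotypes, 5 passed against spleen (2.89 percent) and 4 against thymus (5.61 percent), all lower. With each library left out in turn the counts were 2 to 6 and 2 to 4, and Lck and Lat were called each time. The median log2 difference from spleen over the 9 genes was -0.37, beside -0.03 for all genes tested, and from thymus -0.25 beside -0.000695. For Lck, Zap70 and Lat all 4 peritoneal libraries lay below all 11 others, 3 of 9 genes against 1.41 percent of all genes. These shares are over all genes tested, whose median biological coefficient of variation was 0.55. It was 0.11 to 0.23 for the 9 genes, and its median was 0.18 for the 2234 genes with a mean of at least 100 CPM. Shares among genes of like level and spread were not counted and may be higher. The averaged comparisons with spleen and with thymus share the peritoneal libraries.

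Between thymus and spleen, none of the 9 passed in controls (background 0.603 percent), in dDC (0.179 percent) or averaged over both (1.32 percent) with edgeR, and 1 gene, Cd3e, had an unadjusted p under 0.05 in each. Cd3e was 1.18-fold lower in thymus in the average (log2 -0.23, SE 0.0603, adjusted p = 0.0956), and DESeq2 and limma-voom both called it there. Over all genes these tools called 1075 and 302 in that comparison, and edgeR 243. Lck and Lat differed by -0.06 and -0.05, with 95% intervals from -0.27 to 0.15 and from -0.23 to 0.13.

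Since the CD3 chains mark T cells in general, each gene was also set against them within a library, as a ratio of its CPM to the geometric mean of Cd3e, Cd3d and Cd3g. The ratio of Lck was 1.70 and 1.58 in peritoneal controls and 1.44 and 1.19 in peritoneal dDC, against 1.73 to 2.42 in the 11 other libraries. The ranges did not overlap, by a narrow margin. The share of all genes whose ratio separates in this way was not counted. Zap70 had ratios of 0.105 to 0.222 in peritoneal libraries and 0.174 to 0.301 elsewhere, and Lat 0.395 to 0.711 against 0.505 to 0.694, both with overlap. With library sizes set from these 3 genes, Lck was lower averaged over both genotypes, by -0.35 on the log2 scale from spleen (SE 0.0792, edgeR adjusted p = 0.0201) and -0.48 from thymus (SE 0.0829, adjusted p = 0.00476). On this scaling Lat gave -0.18 and -0.33 (adjusted p = 0.305 and 0.0908), Zap70 -0.64 and -0.70 (adjusted p = 0.0735 and 0.0680), and Cd5 -0.33 from thymus (adjusted p = 0.0666). No gene was called within 1 genotype on it. This scaling was chosen after the values were seen. The ratio of Trac, the constant region of the receptor's alpha chain, to the CD3 genes was also lower in peritoneal cavity. Its group means were 1.76 in controls and 1.51 in dDC, against 2.05 and 2.05 in spleen and 1.85 and 1.95 in thymus. Its ranges in peritoneal controls (1.65 to 1.87) and thymus controls (1.82 to 1.87) overlapped. Lck was not tested with Trac as the reference, so the result for Lck holds for the CD3 genes only.

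**Figure D3:**
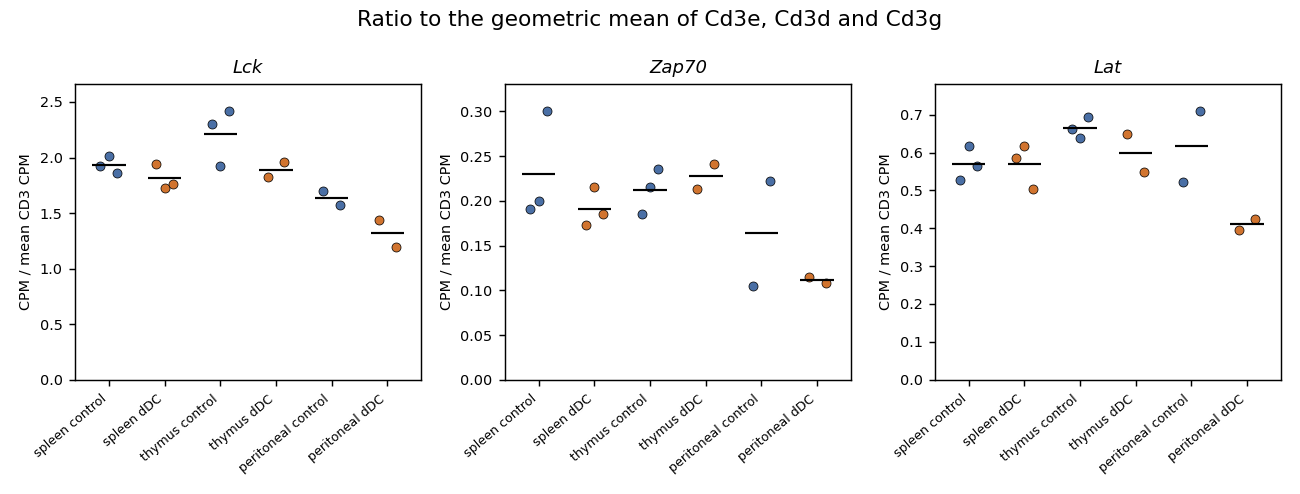
Ratio of Lck, Zap70 and Lat to the geometric mean of the CPM of Cd3e, Cd3d and Cd3g (vertical axis, linear from 0) in each library, with group means as bars. The peritoneal libraries are at most 1.70 for Lck and the others at least 1.73, and the ranges overlap for Zap70 and Lat.

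Markers of other cells moved with the same tissue contrast. Averaged over both genotypes, 8 of 8 B cell markers were higher in peritoneal cavity than in thymus and 1 of 8 (Cd79b) higher than in spleen, and the summed B cell list was 3347 to 5582 CPM in peritoneal cavity, 2590 to 3737 in spleen and 1124 to 1641 in thymus. Ighm made up most of that sum in each tissue. The myeloid sum was 61.20 to 1592 CPM in peritoneal cavity, with 1592 in peritoneal control 2. The immature thymocyte list summed to 221.6 to 226.9 CPM in peritoneal cavity, 126.1 to 179.9 in spleen and 183.4 to 239.2 in thymus; within it Cd1d1 was at 175.1 to 214.5 CPM in peritoneal cavity, and Rag1 had 0 reads in all 4 peritoneal libraries and 2.847 to 9.694 CPM in thymus. The gamma delta T cell list summed to 25.55 to 61.39 CPM in peritoneal cavity, 7.907 to 26.37 in spleen and 18.40 to 39.10 in thymus. The Treg list summed to 2754 to 4155 CPM in peritoneal cavity, 3094 to 3649 in spleen and 3867 to 4735 in thymus, with Foxp3 at 199.2 to 320.0, 178.6 to 256.0 and 222.0 to 326.9. Tnfrsf18 was higher in peritoneal cavity than in spleen, and Ikzf2, Il2ra and Ctla4 were lower than in thymus. The part of these cells' RNA in the differences of Lck, Zap70 and Lat was not tested.

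Between genotypes, none of the 9 genes passed the test. In spleen 0 of 9 passed (0 percent of all genes, with 786 at an unadjusted p under 0.05), and the log2 differences of dDC from control lay between -0.23 for Zap70 and 0.11 for Cd3g. In thymus 0 of 9 passed (0 percent, 1211 at an unadjusted p under 0.05), with values from -0.24 for Cd5 to 0.21 for Lcp2. No member had an unadjusted p under 0.05 in either tissue. The widest 95% interval in spleen was that of Zap70, from -0.78 to 0.32, and that of Cd3e was from -0.12 to 0.23.

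In peritoneal cavity 7 of the 9 differences were positive, with a median of 0.25 beside 0.00 for all genes, and 0 passed (0.00543 percent of all genes passed). Of these genes 3 had an unadjusted p under 0.05, as did 1171 of all genes. Lcp2 gave 0.51 (SE 0.124, edgeR adjusted p = 0.350). Cd3e gave 0.41 (SE 0.0982, adjusted p = 0.335) and Cd3g 0.32 (SE 0.129, adjusted p = 0.745). DESeq2 called Cd3e and Lcp2 there, and edgeR and limma-voom did not. Over all genes DESeq2 called 223 in this comparison, edgeR 1 and limma-voom 5. Cd5 gave 0.36, Lck 0.01 and Lat -0.24. The dDC libraries did not overlap the controls for Cd3e, Cd3g, Lat, Lcp2 and Cd5. With 2 libraries against 2 this carries little weight, and its share over all genes was not counted. The Treg list summed to 4155 and 3495 CPM in dDC and 3235 and 2754 in controls, and the gamma delta list to 38.31 and 25.55 against 45.93 and 61.39. The myeloid sum was high in 1 of the 2 controls. The part of these lists' cells in the values was not tested.

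Averaged over the 3 tissues, 0 of 9 passed (0.0760 percent of all genes, 1715 at an unadjusted p under 0.05). The largest value was 0.26 for Lcp2 (95% interval 0.12 to 0.40, edgeR adjusted p = 0.225), which DESeq2 called, followed by 0.19 for Cd3g (0.04 to 0.34, adjusted p = 0.424) and 0.16 for Cd3e (0.04 to 0.27, adjusted p = 0.367). Over all genes DESeq2 called 450 in this average and edgeR 14. For Lck the interval was -0.26 to 0.11, for Lat -0.26 to 0.05 and for Zap70 -0.45 to 0.27. The intervals are not adjusted for the number of genes. Tests of whether the genotype difference itself differed between tissues called 0 of 9 genes for thymus against spleen, peritoneal cavity against spleen and peritoneal cavity against thymus (0 percent of all genes in each). At an unadjusted p under 0.05 these tests held 0, 2 and 2 of the 9, and 932, 900 and 1053 of all genes. Cd3e and Lcp2 were the members in the second test (0.36 and 0.46), and Cd3e and Cd5 in the last (0.40 and 0.60), all with an adjusted p of at least 0.840.

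**Figure D4:**
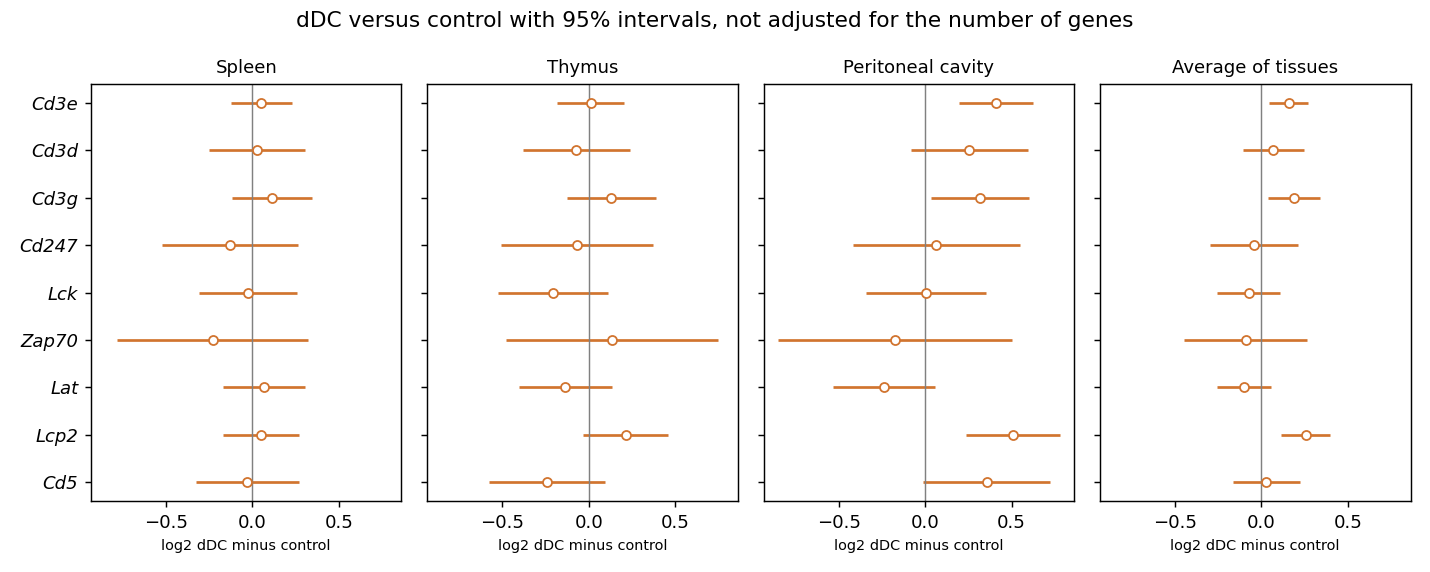
Log2 difference of dDC from control (horizontal axis) for each gene in spleen, thymus, peritoneal cavity and averaged over these tissues, with 95% intervals not adjusted for the number of genes. Open points mark that no gene passed the edgeR threshold; Lcp2 in peritoneal cavity is highest at 0.51.

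The rest of the pathway was described by 6 lists with 69 other genes, all of which were tested. In the average of both genotypes, 11 were lower and 0 higher in peritoneal cavity than in spleen, beside 2.89 percent of all genes called in either direction. Against thymus 12 were lower and 3 higher, beside 5.61 percent. Of the 9 receptor chains and surface partners, Trac, the constant region of the alpha chain, was lower than in spleen (-0.70, edgeR adjusted p = 0.000128) and thymus (-0.39, adjusted p = 0.00456). Cd6, a relative of Cd5 on T cells, was also lower (-0.52, adjusted p = 0.00400, and -0.60, adjusted p = 0.00121). Trbc2 was lower than in spleen (-0.45, adjusted p = 0.00368), but its sequence is near that of Trbc1 and reads could be split between them. The calls of Trac and Cd6 held with each library left out.

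Among the other kinases and adaptors the direction was mixed. Fyn, the other main Src family kinase of T cells, was lower than in spleen (-0.73, adjusted p = 0.0239, edgeR), and Tec, a kinase of the Tec family, was higher than in thymus (1.49, adjusted p = 0.0205). Of 16 adaptors, Lax1 and Sh2d2a were lower than in spleen (-1.13 and -0.63, adjusted p = 0.00396 and 0.00707). Mean Lax1 in controls and dDC was 219.8 and 241.8 CPM in spleen and 92.13 and 121.0 in peritoneal cavity. In thymus it was 110.7 and 134.3, near the peritoneal level. In peritoneal cavity Sh2d2a, which binds Lck, and Vav1 were lower than in thymus (-0.86 and -0.83, adjusted p = 0.000774 and 0.0140), while Trat1 was higher (0.96, adjusted p = 0.00783). Of 14 phosphatases and inhibitors, Ptpn6, the phosphatase SHP-1, was lower than in spleen (-0.61, adjusted p = 0.0268). Ubash3a, Dgkz and Dok2 were lower than in thymus, between -0.55 and -0.82, and Sla2 was higher (0.49, adjusted p = 0.0461). Of 16 downstream enzymes and factors, Plcg1 was lower than in thymus (-0.63, adjusted p = 0.0315) and none passed against spleen. Apart from Lax1 against spleen and Sh2d2a and Trat1 against thymus, each call in these lists was lost in at least 1 fit with a library left out. In thymus against spleen, averaged over both genotypes, 3 of the 69 genes were lower and 0 higher, beside 1.32 percent of all genes called.

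Among the pathway genes that passed, those induced by receptor stimulation differed most. Of 9 such genes, Egr2, Tnfrsf9, Nr4a1 and Nr4a3 were lower in peritoneal cavity than in spleen and thymus, averaged over both genotypes, with 0 higher, beside 2.89 and 5.61 percent of all genes called. Egr2, a transcription factor, was at 2.64 and 6.08 CPM in peritoneal controls and 1.70 and 0.111 in peritoneal dDC, where the last value rests on 2 reads. It was at 47.6 to 94.4 CPM in spleen and 48.4 to 103 in thymus. The averaged log2 difference was -5.11 from spleen (SE 0.518, edgeR adjusted p = 0.000268) and -4.95 from thymus (SE 0.521, adjusted p = 0.000176). Tnfrsf9, the costimulatory receptor 4-1BB, was at 28.9 and 60.9 CPM in peritoneal controls and 59.5 and 77.6 in peritoneal dDC, against 181 to 291 in spleen and 176 to 304 in thymus. Its difference was -2.13 from spleen and -2.17 from thymus (adjusted p = 0.000669 and 0.000329). Egr2 and Tnfrsf9 were called against both tissues with each library left out. Nr4a1 was at 23.0 and 106 CPM in peritoneal controls and 8.70 and 21.6 in peritoneal dDC, so that 1 control overlapped the spleen range of 70.9 to 158, and it was at 178 to 315 in thymus. Its difference was -1.72 from spleen (adjusted p = 0.0464), called with a library left out only without peritoneal control 2, and -2.96 from thymus (adjusted p = 0.00210). Nr4a3, of the same family, was at 1.71 and 0.57 CPM in peritoneal controls and 3.30 and 1.33 in peritoneal dDC, below all 11 others, which lay between 3.79 and 19.9 CPM in spleen and 17.5 and 33.8 in thymus. Its averaged difference was -2.66 from spleen (edgeR adjusted p = 0.0319), a call lost without spleen control 2, spleen dDC 2 or 3, peritoneal control 2 or either peritoneal dDC library, and -3.99 from thymus (adjusted p = 0.00316), a call that held with each library left out in turn. Between genotypes none of the 69 genes passed in any tissue or in the average, where the lowest edgeR adjusted p was 0.156.

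**Figure D5:**
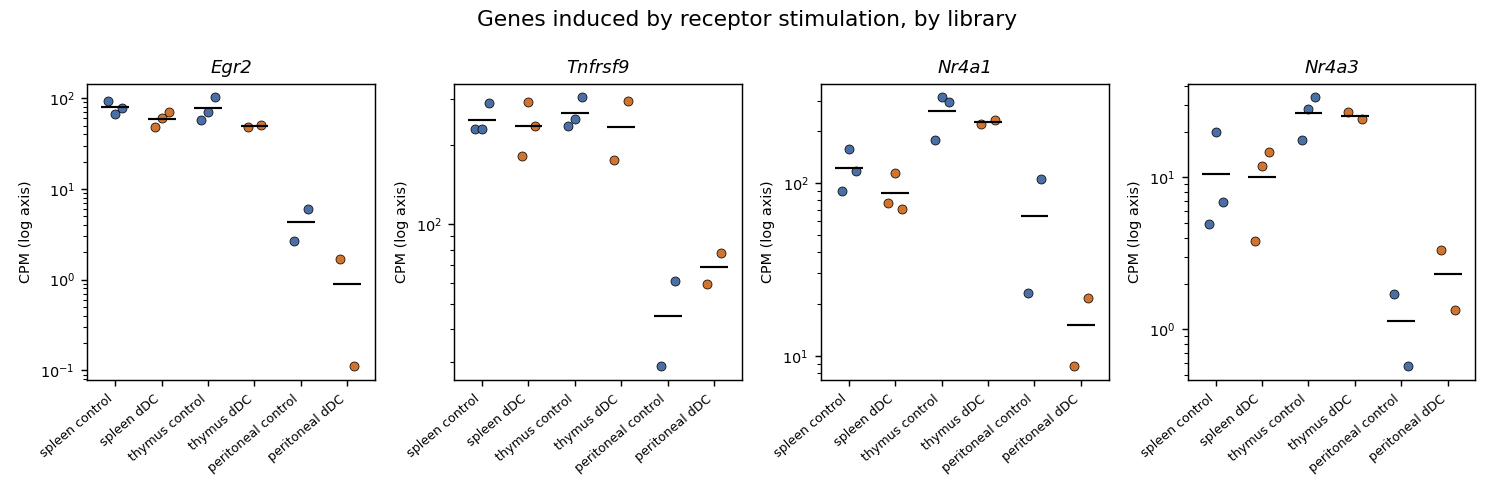
CPM (vertical log axis) of Egr2, Tnfrsf9, Nr4a1 and Nr4a3 in each library with group means as bars. Peritoneal libraries are at most 6.08 for Egr2 and 77.6 for Tnfrsf9, and all spleen and thymus libraries are at least 47.6 and 176.

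Over the 15 libraries the members fell into loose sets by correlation of log2 CPM, given as a description since the libraries share tissue and depth. Pearson's r was 0.907 for Cd3d and Cd3g, 0.848 for Cd3e and Cd3g, 0.858 for Zap70 and Lat and 0.831 for Lck and Lat. Lat and Lcp2, which act together as proteins, had an r of 0.01, and Cd247 had none above 0.351 with another member. Among 6895 other genes, those most like the mean of the CD3 chains and Cd247 were Hsd11b1 (r = 0.928), Calr (0.920), Gm7964 (0.913), Tomm34 (0.885) and Alox8 (0.882). Those most like the mean of Lck, Zap70, Lat and Lcp2 were Shisa5 (0.949), Tnfrsf9 (0.925), Trim30d (0.921), Izumo1r (0.920) and Cbx6 (0.914). For Cd5 they were Scd2 (0.892), Slc26a2 (0.881), Wdr6 (0.878), Casp8 (0.876) and Vgll4 (0.870).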

How the data were processed

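RNA of 15 Treg libraries was, per the labels' protocols, isolated with the RNeasy Micro Kit, copied from a poly-dT primer with template switching, amplified and made into libraries that do not mark the strand; no molecular identifiers are named. Per the submitters' processing notes, bcl2fastq 2.19.1, the aligner GSNAP and the read counter featureCounts 1.6.0 were used with build mm10; their settings are not given in the sources. Raw counts were deposited by the authors per gene, as whole numbers. The 92 spike-in rows held at most 6 counts in a library and were left out. Symbols from GENCODE M21 names were found for 45143 of 45706 identifiers (98.8 percent).

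Counts were filtered with filterByExpr, scaled with TMM and fitted with the quasi-likelihood test of edgeR 4.0.16 (R 4.3.3), with 1 mean per group and 9 residual degrees of freedom; the coordinates are 1-based. Tests were two-sided, adjusted by Benjamini-Hochberg over 18423 genes at a threshold of 0.05, and adjusted p-values are those of edgeR where no tool is given. The script was tested on simulated data. Alternatives were DESeq2 1.42.0, limma-voom 3.58.1, other scalings, no filter, only the groups compared and each library left out. Pairs of replicates differed beyond counting noise (chi-square per degree of freedom 57.0 to 139). The members, lists and tests were chosen with earlier results of these data known. Named were all members, and per list and comparison at most 4 genes past the threshold in a direction. Correlations used genes with a mean of at least 20 CPM.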

Additional observations from a re-analysis of the deposited data

How the results depend on the processing

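No result changed direction while called, except that Cd3e, lower in peritoneal cavity than in spleen averaged over both genotypes, was at 0.0399 on the log2 scale (adjusted p = 0.770) with library sizes set from the CD3 genes, a scaling built on Cd3e itself. With DESeq2 the number of the 9 genes called was 7 for peritoneal cavity against spleen in controls, 4 against thymus in controls, 3 against spleen and 3 against thymus in dDC, 1 for thymus against spleen averaged over both genotypes, 2 for dDC against control in peritoneal cavity and 1 for the average over tissues. Over all genes DESeq2 called 843, 1523, 642, 1082, 1075, 223 and 450 in these comparisons, in the same order. The main edgeR fit called 146, 455, 167, 249, 243, 1 and 14. With limma-voom the number of the 9 was 1 for thymus against spleen averaged over both genotypes (302 of all genes). For peritoneal cavity against spleen in dDC it was 2 (222 of all genes). That last count of the 9 was also 2 with DESeq2 size factors in edgeR and 2 with no filter. Calls over all genes are not given here for the other settings. With upper quartile factors 1 gene was called against spleen in controls. Fits of only the groups compared, which have fewer libraries, called 0 for each comparison of peritoneal cavity within 1 genotype that had called a gene, and 3 against spleen averaged over both genotypes. With library sizes from the CD3 genes the counts within 1 genotype were 0, and averaged over both they were 1 against spleen and 1 against thymus, Lck each time. With each library left out, the counts ranged from 0 to 2 (spleen) and 0 to 3 (thymus) in controls, 0 to 2 (spleen) in dDC, and, averaged over both genotypes, 2 to 6 (spleen), 2 to 4 (thymus) and 0 to 1 (thymus against spleen). In dDC against thymus and in all genotype comparisons the range was 0 to 0. A replicate block on library numbers that neighbour each other left 4 residual degrees of freedom and called 0 of the 9 genes in the genotype comparisons; deviations of such neighbours correlated between -0.0234 and 0.115, so the numbers were not taken as pairs. The lowest count of a member in a library was 2098; how group size and depth bear on the calls was not tested.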
